A study of Mus musculus with 2 samples.

Results

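Genes with which fat cells take up, make, store and release lipid were compared in newborn mouse heads with maternal or paternal duplication of distal Chr 2. The 40 genes are fat cell regulators, coat proteins and lipases of the lipid droplet, genes of lipid and glucose uptake, enzymes of fatty acid and triglyceride synthesis, and adipokines. They were chosen by gene symbol, with earlier results of the same comparison in view that had shown fat genes with higher signals in one head, so their ratios are given as a description and none of them is a test. Every probe set whose annotation gives a single gene symbol was taken. Of the 40 genes, 38 had such probe sets, 84 in all out of 45101 on the array, and the signals of Plin1 and Cfd were not analysed here. The genes specific to heat production in brown fat are not members.

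Each genotype was measured as RNA of the whole head on 1 Affymetrix array. Both kinds of newborn descend from carriers of the T(2:9)11H reciprocal translocation, here called T11H. In the MatDp(dist2) head both copies of Chr 2 beyond the T11H breakpoint came from the mother and both copies of Chr 9 beyond it from the father. In the PatDp(dist2) head the parental origins of these parts were exchanged. The samples are called the MatDp head and the PatDp head from here on, although whether each was 1 head or a pool is not given. The labels give no control with 1 copy from each parent, no number of animals per sample, no sex and no litter. With 1 array per genotype there is no spread between replicates, so no difference could be set against it, and every value is only as precise as a single array allows.

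A fat cell keeps triglyceride in a droplet whose surface is coated by perilipins. Fatty acids reach it from the blood, where lipoprotein lipase frees them, or are built in the cell from acetyl-CoA, and are joined to glycerol 3-phosphate in successive steps. Lipases on the droplet release them again. The nuclear receptor encoded by Pparg and factors of the C/EBP family turn this programme on during fat cell differentiation, and SREBP-1, the product of Srebf1, drives the lipogenic enzymes. Several of these genes are also active outside fat, for example Slc2a4, Lpl, Cd36 and Car3 in muscle, Fabp5 in epidermis and Scd2 in brain.

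Values are MAS5 signals, a summary of the probes of a probe set that depends on mismatch probes and is noisy when low. The mean of the 2 array medians, a signal of 187, served as a floor. A gene is called measured where its probe set reached the floor on at least 1 array. If the second array was below it, the ratio was taken against the floor itself and is written as a bound ("at least"). A gene is represented by its brightest probe set unless stated. Log2 ratios are PatDp over MatDp, and positive values mean a higher signal in the PatDp head.

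The fat cell lipid genes had higher signals in the PatDp head as a group. Of the 37 measured members, 21 had a signal at least 2-fold higher in the PatDp head ("past 2-fold" from here on), and 0 had one in the MatDp head. Over all 12483 measured genes the corresponding shares were 3.47% and 4.43%. The median log2 ratio of the members was 1.31, a 2.48-fold difference, against -0.02 over all measured genes. A higher signal in the PatDp head, of any size, was seen for 35 members, and the exceptions were Fabp5 and Elovl6. With quantile normalization or a loess fit Scd2 and Elovl5 joined them, and 33 were left. In RNA of a whole head, fewer fat cells and less RNA per fat cell cannot be told apart. Among the 100 genes with the largest ratios, 15 were members. Because the members were picked with this contrast in view, these counts describe the set and support nothing about it.

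**Figure D1:**
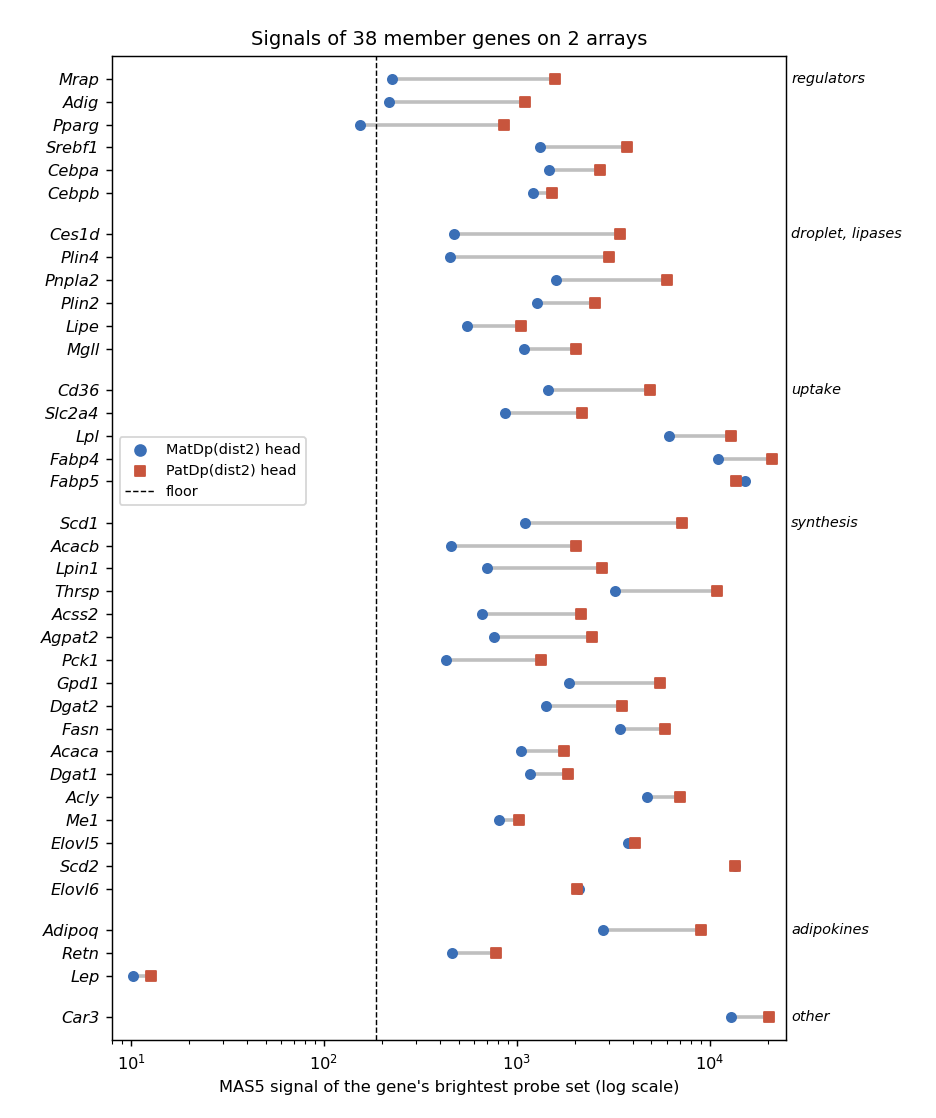
MAS5 signal of each of 38 member genes (rows, by group) on a log axis, for the MatDp head (circles) and the PatDp head (squares), 1 array each, at the brightest probe set. The dashed line is the floor of 187. Most squares lie to the right of their circles, from Ces1d with 471 and 3417 down to Scd2 with 13519.9 and 13611, and Lep lies below the floor on both arrays.

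The regulators, with Mrap and Adig counted among them, had the largest median of the 5 groups at this floor. With the floor at the 70th percentile it was 1.07 and not the largest. Of 6 measured regulators 4 were past 2-fold in the PatDp head, with a median log2 ratio of 1.85. Mrap and Adig, which are not transcription factors, had log2 ratios above that median, 2.81 and 2.35. Mrap, an accessory protein that brings the receptor for the pituitary hormone ACTH to the cell surface, had signals of 225 in the MatDp head and 1574 in the PatDp head, a 6.99-fold difference. Adig encodes adipogenin, a small membrane protein of fat cells, and had signals of 218 and 1110.5, a 5.10-fold difference. Both genes lay just above the floor in the MatDp head. Pparg had 154, below the floor, and 863, at least 4.62-fold higher in the PatDp head. It was the only bound among the members.

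At this floor the transcription factors that act beside Pparg differed less. Srebf1 had signals of 1316 in the MatDp head and 3723 in the PatDp head, a 2.83-fold difference. Cebpa, which with Pparg maintains the mature fat cell, had 1476 and 2718 and stayed under 2-fold at 1.84-fold. Cebpb, which acts early in differentiation and is also induced in many other cells, had 1211 and 1517, a 1.25-fold difference. In these heads the order of the folds was thus Pparg, Srebf1, Cebpa and Cebpb.

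Promoter sequences of members from the RefSeq promoter table for GRCm38.p6 are shown for 3 of the regulators, Adig, Pparg and Cebpa. Each runs from 250 bases before to 50 bases after a transcription start. Capitals mark matches on either strand to fixed motifs: AGGTCA, the core element of nuclear receptors; TTGCNNAA, a C/EBP type motif; and TATAAA, the TATA box. The table lists several starts for Pparg, and the one with the highest coordinates is shown. The other Pparg windows both hold AGGTCA, 28 and 9 bases before their starts, and the latter also holds TATAAA, on the reverse strand, 29 bases before its start. Which start the Pparg probe set reads was not analysed here.
Adig, chr2:158502362-158502661, plus strand: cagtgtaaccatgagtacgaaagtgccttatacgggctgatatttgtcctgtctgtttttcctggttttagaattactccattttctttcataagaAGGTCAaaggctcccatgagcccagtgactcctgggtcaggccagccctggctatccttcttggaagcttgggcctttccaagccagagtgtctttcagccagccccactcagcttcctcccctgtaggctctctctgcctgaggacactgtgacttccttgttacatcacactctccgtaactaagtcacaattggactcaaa
Pparg, chr6:115421816-115422115, plus strand: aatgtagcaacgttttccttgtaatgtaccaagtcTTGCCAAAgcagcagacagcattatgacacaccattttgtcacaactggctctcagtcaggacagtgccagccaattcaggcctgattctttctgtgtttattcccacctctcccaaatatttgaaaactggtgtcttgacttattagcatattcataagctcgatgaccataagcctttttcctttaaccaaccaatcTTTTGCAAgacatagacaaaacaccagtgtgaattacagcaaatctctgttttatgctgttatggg
Cebpa, chr7:35119043-35119342, plus strand: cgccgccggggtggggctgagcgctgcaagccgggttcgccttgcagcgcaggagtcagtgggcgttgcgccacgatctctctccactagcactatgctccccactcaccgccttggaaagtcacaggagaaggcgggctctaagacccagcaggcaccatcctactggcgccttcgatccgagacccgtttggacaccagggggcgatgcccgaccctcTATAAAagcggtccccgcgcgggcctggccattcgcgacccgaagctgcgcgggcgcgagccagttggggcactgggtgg
The Adig window holds AGGTCA 154 bases before the start. The Pparg window holds TTGCNNAA 215 and 16 bases before it, the second on the reverse strand, and the Cebpa window holds TATAAA 30 bases before it.

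Windows of this length were in the table for 28 members, 35 in all, Plin1, Cfd and Lep among them. AGGTCA was found in 9 of them, from 8 genes, or 25.7%, and in 16.3% of all 32851 windows. TTGCNNAA, which includes the form TTGCGCAA, was found in 3 member windows, of Lep, Plin1 and Pparg, or 8.57%, against 10.8% of all. TTGCGCAA itself was in 1, that of Lep, against 0.183%. TATAAA was in 4, or 11.4%, against 13.6%, and the E-box CACGTG in 4, or 11.4%, against 7.15%. The direct repeat of AGGTCA with 1 base between and the sterol response element TCACNCCAC were in none of the 35, against 0.0396% and 1.24% of all windows. A match is a string of letters in a window, not a bound site.

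Genes of the droplet surface and its lipases had a median log2 ratio of 1.46, and 4 of 6 measured members of the group were past 2-fold in the PatDp head. Ces1d, a carboxylesterase that hydrolyses triglyceride, had the largest ratio of all members, with signals of 471 and 3417, a 7.26-fold difference. It ranked 6 among all measured genes. Plin4, a perilipin of the fat droplet coat, had 453 and 3007, a 6.64-fold difference. Plin2, the perilipin found on droplets of most cells, had 1270.4 and 2541 and lay on the threshold at 2.00-fold. The 2 coat proteins therefore differed from each other, with the fold of the broadly expressed one much the smaller.

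The 3 lipases that act in turn on triglyceride also had unequal ratios. Pnpla2, or ATGL, removes the first fatty acid, and had signals of 1593 in the MatDp head and 6051 in the PatDp head, a 3.80-fold difference. Lipe, hormone-sensitive lipase of the next step, had 551 and 1056, a 1.92-fold difference. Mgll, which splits the last fatty acid from glycerol, had 1096 and 2039.7, a 1.86-fold difference. On these probe sets the first lipase was past the 2-fold threshold, and the later ones lay just under it. The remaining measured probe sets of Mgll gave 2.11-fold and 1.43-fold.

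The promoter of Plin4 is shown because it is the gene with the largest ratio whose window the table holds, while Ces1d and Mrap, with larger ratios, are not in it. None of the 7 fixed motifs occurred in it.
Plin4, chr17:56109733-56110032, minus strand: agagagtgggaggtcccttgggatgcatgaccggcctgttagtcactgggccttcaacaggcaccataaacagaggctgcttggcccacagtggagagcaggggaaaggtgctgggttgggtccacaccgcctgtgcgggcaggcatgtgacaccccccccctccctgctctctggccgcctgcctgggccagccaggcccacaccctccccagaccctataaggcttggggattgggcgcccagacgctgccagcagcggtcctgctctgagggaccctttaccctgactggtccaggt

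Among the genes of uptake, those that bring fatty acids in from the blood had higher signals in the PatDp head and Fabp5 did not. Cd36, a fatty acid receptor and transporter of the plasma membrane, had signals of 1450 and 4901, a 3.38-fold difference. Slc2a4, the insulin-regulated glucose transporter GLUT4, had 867 and 2185, a 2.52-fold difference. Its dimmer probe set had 425 and 690, a 1.62-fold difference. Lpl, lipoprotein lipase, had 6177 and 12974, a 2.10-fold difference, whose log2 value of 1.07 was 0.83 with quantile normalization. Of the 5 measured genes of this group 3 were past 2-fold, with a median log2 ratio of 1.07.

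The 2 fatty acid binding proteins went different ways. Fabp4, the carrier of fat cells and macrophages, had signals of 11110.1 in the MatDp head and 21051 in the PatDp head, a 1.89-fold difference on its brightest probe set. Fabp5, known from the epidermis, had 15307 and 13745, which is 1.11-fold higher in the MatDp head. The ratio of Fabp4 was thus 2.11 times that of Fabp5. Beside it, epidermis markers had a summed signal of 49448 in the MatDp head and 6757 in the PatDp head. Their part in the value of Fabp5 was not tested.

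The synthesis group was the largest, with 17 measured genes, of which 9 were past 2-fold in the PatDp head and 0 in the MatDp head. Its median log2 ratio was 1.31. In the supply of acetyl-CoA, Acss2, which makes it from acetate, had signals of 659 and 2159.5, a 3.28-fold difference. Acly, which makes it from citrate, had 4722 and 7008, a 1.48-fold difference. Me1, malic enzyme, a source of NADPH, had 812 and 1032, a 1.27-fold difference. Of these 3 supply genes only Acss2 was past 2-fold.

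The 2 acetyl-CoA carboxylases, which make malonyl-CoA, differed from each other. Acaca, the cytosolic form that feeds fatty acid synthesis, had signals of 1047 in the MatDp head and 1764 in the PatDp head, a 1.68-fold difference. Acacb, the form at the mitochondrial surface that restrains fatty acid oxidation, had 456 and 2025, a 4.44-fold difference. Fasn, fatty acid synthase, resembled Acaca, with 3438 and 5910.4, a 1.72-fold difference. The core enzymes of chain building were thus higher in the PatDp head by less than 2-fold.

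Elongation and desaturation showed the widest contrast within the set. Elovl6, which lengthens palmitate, had signals of 2115 and 2054, and Elovl5, which lengthens polyunsaturated chains, had 3773 and 4097. Both were within 1.09-fold on these probe sets. Dimmer ones gave up to 1.27-fold higher in the MatDp head for Elovl6 and 1.13-fold higher in the PatDp head for Elovl5. Scd1, the desaturase of fat and liver, had 1106 and 7217, a 6.53-fold difference, whereas its neighbour on Chr 19, Scd2, had 13519.9 and 13611, a ratio of 1.01. On these probe sets the ratio of Scd1 was 6.48 times that of Scd2. The dimmer probe set of Scd1, with 238 and 511, gave 2.15-fold. The remaining Scd2 probe sets, with 2927 against 1862 and 420 against 262, had higher signals in the MatDp head.

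Most genes of glycerol 3-phosphate supply and triglyceride assembly were past 2-fold. Gpd1, which makes glycerol 3-phosphate from a glycolysis intermediate, had signals of 1862 in the MatDp head and 5525 in the PatDp head, a 2.97-fold difference. Pck1, which supplies it by glyceroneogenesis, had 429 and 1330.2, a 3.10-fold difference. Agpat2, which adds the second acyl chain, had 766 and 2473, a 3.23-fold difference. On their brightest probe sets the supply genes and the acyltransferase were thus near 3-fold. The remaining measured probe sets of Gpd1 gave 1.57-fold and 1.27-fold.

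Lpin1, a phosphatidate phosphatase that is also a nuclear cofactor, had signals of 703 and 2756, a 3.92-fold difference. Of the enzymes of the final step, Dgat2 had 1422 and 3526, a 2.48-fold difference, and Dgat1 had 1167 and 1855, a 1.59-fold difference. Thrsp, a lipogenic gene induced by thyroid hormone, had 3238 and 10959, a 3.38-fold difference. All of these were higher in the PatDp head, and on the brightest probe sets Dgat1 alone among them stayed under 2-fold. The dimmer probe set of Dgat2 gave 1.42-fold, and that of Dgat1, near the floor, 1.01-fold.

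Of the adipokines, 1 was past 2-fold. Adipoq, the fat cell hormone adiponectin, had signals of 2796 in the MatDp head and 9020.1 in the PatDp head, a 3.23-fold difference. Retn, resistin, had 461 and 778, a 1.69-fold difference. Lep, leptin, lay far below the floor in both heads, with 10.3 and 12.7, and gives no ratio. Car3, a carbonic anhydrase abundant in fat and slow muscle that belongs to none of the 5 groups, had 12851 and 20266 on its brightest probe set, a 1.58-fold difference. Its 4 probe sets gave ratios of 1.58 to 2.87, and 2 of them were past 2-fold, among them the next brightest with 4656 and 13351.

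The fold threshold cut through the set between close values. Just inside it lay Plin2 at 2.00-fold, Lpl at 2.10-fold and Dgat2 at 2.48-fold, and just outside it Lipe at 1.92-fold, Fabp4 at 1.89-fold and Mgll at 1.86-fold. Of the 21 members past 2-fold, 14 were past the threshold of every one of the 11 alternatives, including one of 3-fold. These were Acacb, Acss2, Adig, Adipoq, Agpat2, Cd36, Ces1d, Lpin1, Mrap, Pck1, Plin4, Pnpla2, Scd1 and Thrsp. Pparg, a bound, had a log2 ratio of 0.89 with the floor at the 70th percentile.

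Across the array the ratio varied with the signal, and most members are bright genes. Among the 4517 measured genes with a mean signal of 128 to 512 the median log2 ratio was -0.12, and 2.35% were past 2-fold in the PatDp head. Among the 759 genes at 4096 or more the median was 0.21 and the share 7.64%. The 9 members of that brightest range had a median of 0.78, and 3 of them were past 2-fold. In the range of 1024 to 2048, 7 of 12 members were past it, against 4.42% of all genes, and their median was 1.17, against 0.04.

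**Figure D2:**
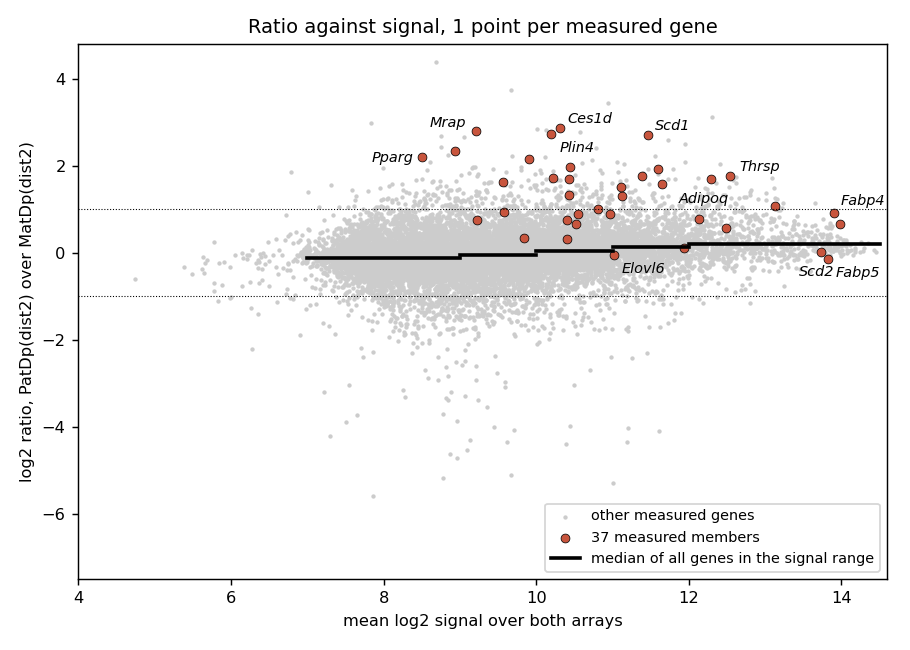
Log2 ratio of PatDp over MatDp (vertical axis) against the mean log2 signal over both arrays (horizontal axis), 1 point per measured gene, with the 37 measured members in red. Dotted lines mark 2-fold, and black bars give the median of all genes in 5 signal ranges, from -0.12 in the dimmest to 0.21 in the brightest. Most members lie above these bars. Fabp5 and Scd2, at the bright end, and Elovl5 and Elovl6 do not.

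Probe sets of the same gene gave the same direction for most members. Of the 84 member probe sets 68 were measured, and 35 of these were past 2-fold in the PatDp head and 0 in the MatDp head, against 2.95% of all named probe sets for the first count. Their median log2 ratio was 1.03. Of the 20 members with more than 1 measured probe set, 18 had all of them in the same direction, and Scd2 and Acly were mixed. Probe sets of a gene share the RNA of both samples and are not replicates.

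The size of the ratio varied more within a gene than its direction. Fabp4 had ratios of 1.67 to 4.12 on 4 probe sets, and the dim ones, with signals of 248 against 1021 and 290.2 against 1083, gave the larger values. Scd1 went the other way, with 2.15 on its dim probe set (238 and 511) and 6.53 on the bright one. Ces1d had ratios of 5.65 to 13.4 on 3 probe sets, the highest on one of the x_at type, which can bind related transcripts. Cd36 had ratios of 2.63 to 3.38, and Thrsp of 3.30 to 3.38. With the mean over probe sets, Fabp4 was past 2-fold, and Gpd1 (ratios of 1.27 to 2.97) and Dgat2 (1.42 to 2.48) were not.

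**Figure D3:**
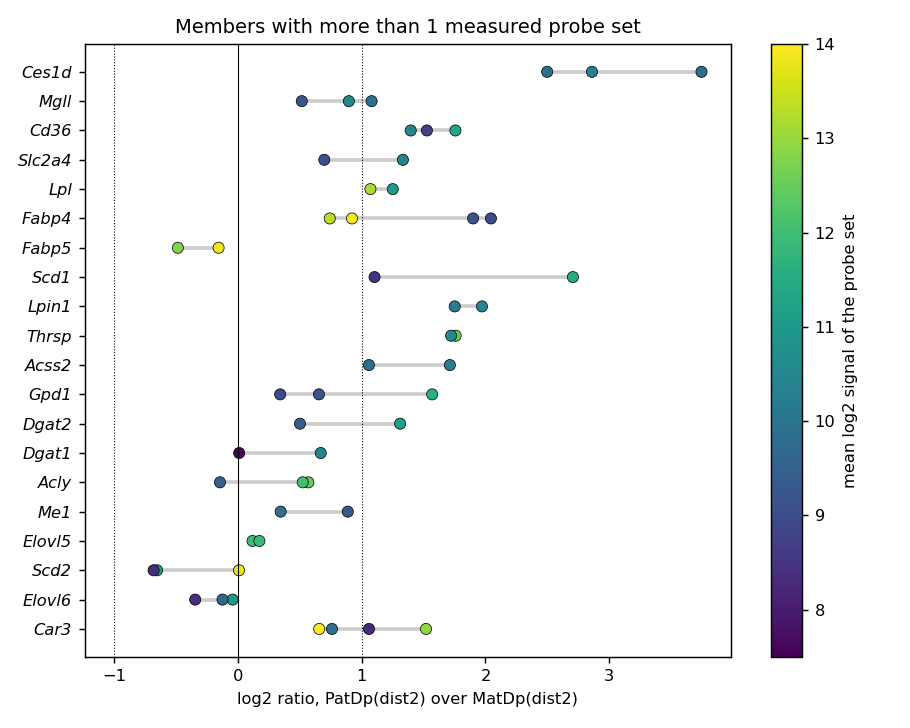
Log2 ratio of PatDp over MatDp (horizontal axis) for every measured probe set of the 20 members that have more than 1 (rows), coloured by mean log2 signal. Grey lines join the probe sets of a gene, and dotted lines mark 2-fold. Ces1d spans ratios of 5.65 to 13.4 and Fabp4 of 1.67 to 4.12, while all probe sets of Fabp5 and Elovl6 lie below 0.

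By position, members past 2-fold were found on the duplicated part of Chr 2 and elsewhere. The labels do not place the breakpoint, so genes from H13 to the end of Chr 2 stand for the distal part and all of Chr 9 stands for its part. Of the 4 measured members on distal Chr 2, Acss2, Adig and Pck1 were past 2-fold in the PatDp head and Cebpb was not. Among all 242 measured genes of that part the share was 4.13%. On Chr 9, Me1 and Elovl5 were both under 2-fold, and the share over 704 genes was 3.12%. Only Chr 9 beyond the breakpoint was paternal in the MatDp head, and the labels do not say whether that part holds these genes. In the rest of the genome, which includes Chr 2 before H13 with Agpat2, 18 of 31 measured members were past 2-fold. The share over its 11537 genes was 3.48%. Most of the members that differed thus lie outside the parts whose parental origin differed.

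Other genes of the same pathways, from lists fixed with earlier results in view, followed the members in part. Their counts stand beside shares of all measured genes of 3.47% in the PatDp head and 4.43% in the MatDp head. Leaving brown fat aside, further droplet and lipolysis genes had the highest median, a log2 value of 0.76. Of 18 measured genes 6 were past 2-fold in the PatDp head and 0 in the MatDp head. Plin5, a perilipin of oxidative tissues, had signals of 378 and 1773, a 4.69-fold difference. Cidec, which fuses droplets in white fat cells, had 197 and 736, a 3.73-fold difference, and G0s2, an inhibitor of the lipase ATGL, had 569 and 2025, a 3.56-fold difference. The inhibitor and the lipase Pnpla2 were thus both higher in the PatDp head.

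The share past 2-fold in the PatDp head was 3.47% over all measured genes. Of 20 further fat cell transcription factors and cofactors, 3 were past 2-fold in that direction, with a median of 0.15. They were Ppara, a nuclear receptor of fatty acid oxidation, with 531 and 1701, Klf15, with 177 and 434, and Cebpd, with 589 and 1179. Of 15 further genes of fatty acid uptake and activation 2 were past 2-fold, with a median of 0.44. Angptl4, an inhibitor of lipoprotein lipase, had 539 and 1899, a 3.52-fold difference, and Gpihbp1, which anchors that lipase in capillaries, had 1038 and 2248, a 2.17-fold difference. Slc1a5, a transporter of neutral amino acids that the list also holds, had 568 and 1044. The lipase, its anchor and its inhibitor were higher in the same head.

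Among all measured genes 3.47% were past 2-fold in the PatDp head and 4.43% in the MatDp head. Of 32 further lipogenesis genes 5 were past 2-fold in the PatDp head and 1 in the MatDp head. Their median log2 ratio of 0.10 was below 0 with the floor at the 70th percentile, without bounds, or without probe sets ending in s_at or x_at. Mlxipl, the glucose-responsive factor ChREBP, had signals of 324 and 1130, a 3.49-fold difference. Pcx, pyruvate carboxylase, had 851 and 2111. Elovl4, which builds very long chains in skin and retina, had 1256 and 447 and was 2.81-fold higher in the MatDp head. This list was divided evenly, 16 genes higher in each head.

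Over all measured genes 3.47% were past 2-fold in the PatDp head. Of 14 measured genes of insulin and nutrient signalling 1 was past it, with a median of 0.07. This was Pdk4, which restrains glucose oxidation, with 583 and 3968, a 6.80-fold difference. Pfkfb3 (625 and 382) and Foxo1 (994 and 1504) followed in size. Of 13 further hormones and receptors of fat 3 were past 2-fold, with a median of 0.47. They were Nampt (954 and 2520.4), Agt, angiotensinogen (200.2 and 516), and Rbp4, the retinol carrier (894 and 1865).

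Cholesterol synthesis genes had the opposite direction to the members. Of 20 measured genes 18 had a higher signal in the MatDp head, 2 of them at least 2-fold, and 0 were 2-fold higher in the PatDp head. Of all 12483 measured genes, 6485 had the higher signal in the MatDp head, and 48.0% had it in the PatDp head. The share at least 2-fold higher in the MatDp head was 4.43%. The cholesterol synthesis genes had a median log2 ratio of -0.47, and of -0.65 to -0.31 under the alternatives. Fdps, farnesyl diphosphate synthase, had signals of 2065 in the MatDp head and 760.3 in the PatDp head, a 2.72-fold difference. Sqle, squalene epoxidase, had 2931 and 1288, a 2.28-fold difference, and Msmo1 had 1570 and 854. Insig1 and Insig2, regulators of sterol synthesis named here as the exceptions, had 823 and 1234, and 1112 and 1191, and were the ones higher in the PatDp head. Beside these genes, neuron markers were lower in the PatDp head in 10 of 10 cases, with a median of -1.18, and epidermis markers in 8 of 8, with a median of -3.54. Their part in the cholesterol synthesis values was not tested.

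Most genes of heat production in brown fat, which are no members, moved the way the members did. Of 11 measured genes 8 were past 2-fold in the PatDp head, against 3.47% of all measured genes, with a median of 1.25. Prdm16 went the other way, with 583 and 446, 1.31-fold higher in the MatDp head. Dio2 (503 and 685) and Elovl3 (155 and 218, at least 1.17-fold) were not past 2-fold. Cox7a1 (1394 and 6510), Cidea (2677 and 11022) and Cox8b (1825 and 6916) had the largest folds. Ucp1, the defining gene of brown fat, had 5963 and 13932. Its signal was far above the floor in both heads.

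**Figure D4:**
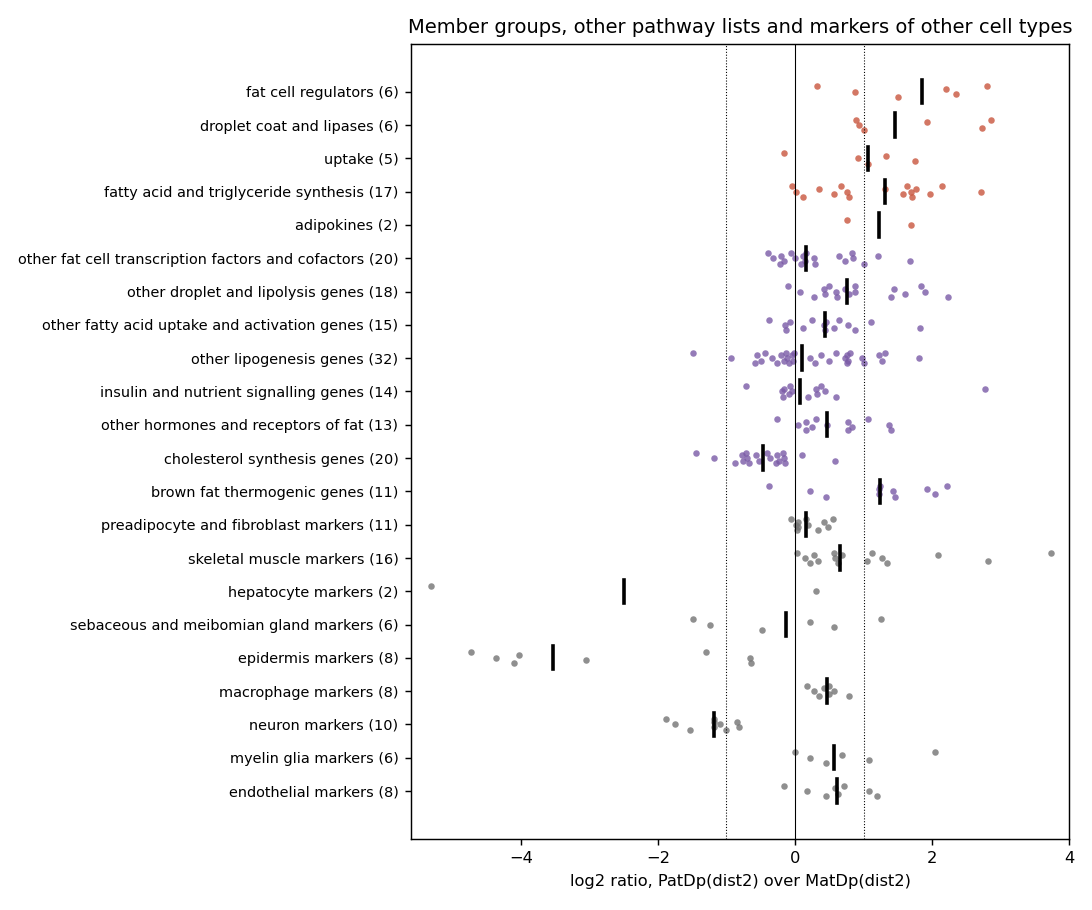
Log2 ratio of PatDp over MatDp (horizontal axis) of each measured gene (points) in the 5 member groups (red), 8 other lists of the pathways and of brown fat (purple) and 9 lists of markers of other cell types (grey), with the number of measured genes in brackets. Black bars are medians and dotted lines mark 2-fold. The member groups and brown fat have medians above 1, cholesterol synthesis lies at -0.47, and epidermis at -3.54.

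Markers of other cell types also differed between the heads. The signals of 16 skeletal muscle markers summed to 120894 in the MatDp head and 172121 in the PatDp head. All 16 were higher in the PatDp head and 7 were past 2-fold, against 3.47% of all measured genes. The muscle markers had a median log2 ratio of 0.66, and the leading ones were Mb (224 and 2983), Myh2 (422 and 2959) and Myh1 (1912 and 8138). This stands beside the values of the members, Slc2a4, Lpl, Cd36 and Car3 among them. Macrophage markers, which stand beside those of Fabp4, Lpl and Cd36, summed to 7992 and 12180, and 0 of 8 measured genes were past 2-fold, with 2 of 10 below the floor. Endothelial markers summed to 5750.4 and 8442, with 2 of 8 past 2-fold, and myelin glia markers to 7563 and 13878, with 2 of 6. Fibroblast and preadipocyte markers summed to 62079 and 66161, with 0 of 11 past 2-fold and a median of 0.16. The part of these cell types in the members' ratios was not tested.

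Markers with higher signals in the MatDp head were those of epidermis, with 6 of 8 at least 2-fold higher there, and of neurons, with 8 of 10 and sums of 33698 and 14930.3. The share over all measured genes was 4.43%. Sebaceous and meibomian gland markers were mixed. Of 10 on the array 6 were measured, 1 past 2-fold in the PatDp head and 2 in the MatDp head, with a median of -0.13. Their signals summed to 8463 and 13087, of which Mgst1 gave 4188 and 9966, and Mc5r and Scd3 lay below the floor on both arrays. Of 9 hepatocyte markers 7 lay below it on both arrays, among them Alb (123 and 169), Apoa1 (57.3 and 54.7) and Fgb (2.5 and 2.1). The list summed to 13682 and 1142, with Ttr, which the choroid plexus also makes, at 12952 and 327. The control probe sets for the ends of a transcript gave 3' over 5' ratios of 1.33 and 1.34 for Actb and of 0.936 and 1.04 for Gapdh in the MatDp and PatDp heads.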

How the data were processed

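RNA of newborn whole heads was hybridised to 1 array per genotype, with no replicate. The values are the deposited intensity of each probe set on a linear scale, made by the authors with MAS5 and GCOS per the submitters' processing notes. The trimmed mean without the lowest and highest 2% was 500.002 on both arrays, so each was scaled to the same mean. Detection calls were not used here. After 64 control probe sets were left out, 34945 had 1 symbol in the platform annotation, and 34741 of these had a RefSeq gene ID for updating it. At or above the floor were 51.6% of probe sets in the MatDp head and 48.3% in the PatDp head. The members and all lists were chosen with earlier results of these data known. The genes named were every member and the 3 largest absolute log2 ratios of each pathway list and of the muscle markers; other marker lists are given by counts and sums, although the rule covered them. Hepatocyte and some gland markers, and Ucp1, Prdm16, Dio2, Elovl3, Insig1 and Insig2, were named after their values were seen. The windows of Adig, Pparg and Cebpa were too. No test was run. The ratios were checked on data with known changes. Alternatives were other floors, scalings, an offset, other probe set choices, other thresholds and no bounds. Python 3.11.15, numpy 2.4.6, pandas 2.3.3 and statsmodels 0.14.6 were used.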

Additional observations from a re-analysis of the deposited data

How the results depend on the processing

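The count of 21 members at least 2-fold higher in the PatDp head was 19 to 22 under the 9 alternatives that kept the 2-fold threshold, 15 at a 3-fold and 30 at a 1.5-fold threshold, and the count in the other direction was 0 under all 11. The members' median log2 ratio was 1.02 to 1.35. With the floor at the 70th percentile the median of the fat cell regulators was 1.07, since the signals of Mrap, Adig and Pparg in the MatDp head lie below that floor. The median of further lipogenesis genes was -0.021 with that floor, -0.018 without s_at and x_at probe sets and -0.030 without bounds. At the 3-fold threshold 1 uptake gene was left, and at the 1.5-fold threshold 2 adipokines were past it. Over all genes, those higher in the MatDp head by at least the threshold numbered 553 of 12483 measured in the main setting. The number was 833 of 15193 with the floor at the 30th percentile, 266 of 9032 at the 70th and 356 with an offset of 100. It was 146 at 3-fold and 1496 at 1.5-fold. Those higher in the PatDp head by at least the threshold numbered 433 in the main setting, 100 at 3-fold and 1353 at 1.5-fold. Fewer genes pass a higher threshold by construction, and the other causes were not tested. With the floor at the 70th percentile, droplet coat and lipases (1.46), synthesis (1.31) and adipokines (1.22) ranked above the regulators. MAS5 signals near the floor are noisy, and with 1 array per genotype the error of no value is known.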
